A study of Mus musculus with 4 samples.

Results

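Blood vessel endothelium is the sheet of cells that lines arteries, capillaries and veins. In the single-cell libraries of this study it was a rare by-catch of a sort made for hair follicle mesenchyme. A cell was taken as blood endothelial when it held at least 1 UMI, that is 1 counted RNA molecule, of at least 4 of the 8 genes Pecam1, Cdh5, Kdr, Flt1, Emcn, Egfl7, Cldn5 and Plvap. It could hold at most 1 of the lymphatic genes Prox1, Mmrn1, Reln and Flt4. The members were thus selected on their measured UMIs of these 12 genes. By this rule 123 of the 13877 cells that passed the quality filters were blood endothelial.

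The cells came from the back skin dermis of mice on the C57BL/6J background, sequenced with the 10x 3′ method in 4 libraries. Version 2 chemistry (v2) was used for a 2-month and an 18-month library from α-SMACreERT2:RosaYFP mice. Version 3 chemistry (v3) was used for a second set, of 2 and 12 months, from mice labelled α-SMACreERT2:RosaTDTomato, although the protocol text still names RosaYFP and the eYFP entry was counted in these libraries too. All mice received 4-hydroxytamoxifen or tamoxifen on postnatal days 3 and 4, so no library lacks Cre or treatment. The Cre is driven by the promoter of α-smooth muscle actin, a gene of contractile cells, and the model is not one of endothelial labelling. Cells from which the epidermis had been removed were sorted in 2 gates. The first took cells with the reporter and the other cells with Cd26, and in both Itga9 or Cd200 was required. From each gate 5000 cells were used, 10000 per library. Each sample came from 2 mice, and the labels do not say whether they were pooled. The study's design text counts 12 months among the young ages, whereas here both older libraries were set against the 2-month libraries and the other grouping was an alternative.

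Endothelial cells differ along the vessel. Arterial cells use Notch signalling and the transcription factor Sox17, capillary cells take up fatty acids through Cd36 and the lipoprotein lipase anchor Gpihbp1, and cells of small veins carry the selectins that catch leukocytes from the blood. In skin these vessels feed the dermis and surround the hair follicle. Most genes that set endothelium apart are known to be driven by transcription factors of the ETS family (such as Erg, Fli1 and Ets1), which bind DNA around a GGAA core.

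The promoters of 4 genes described below are printed with a longer form of this core marked. They are the growth factor receptor gene Kdr, the receptor gene Tie1, the retinol-binding protein gene Rbp7, which was among the genes furthest from the other cells, and Selp, the gene of P-selectin, which marked a subset of the cells. Each sequence is the 250 bases before the annotated start, from RefSeq on GRCm38.p6, read 5′ to 3′ on the gene's strand. Capitals mark matches to AGGAAG or its reverse complement CTTCCT, overlapping matches included. The bare core, GGAA or TTCC, outside these matches is left in lower case, also in the Kdr window.
Kdr, chr5:75978456-75978705, minus strand: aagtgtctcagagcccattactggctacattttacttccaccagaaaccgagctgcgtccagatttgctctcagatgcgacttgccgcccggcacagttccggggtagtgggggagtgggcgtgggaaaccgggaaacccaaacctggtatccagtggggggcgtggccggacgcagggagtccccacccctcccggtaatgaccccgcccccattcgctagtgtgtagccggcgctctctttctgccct
Tie1, chr4:118489850-118490099, minus strand: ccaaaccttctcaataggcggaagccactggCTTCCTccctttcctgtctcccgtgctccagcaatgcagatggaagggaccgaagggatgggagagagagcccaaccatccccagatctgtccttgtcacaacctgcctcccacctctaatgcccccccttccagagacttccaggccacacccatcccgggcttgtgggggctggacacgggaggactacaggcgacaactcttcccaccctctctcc
Rbp7, chr4:149454969-149455218, minus strand: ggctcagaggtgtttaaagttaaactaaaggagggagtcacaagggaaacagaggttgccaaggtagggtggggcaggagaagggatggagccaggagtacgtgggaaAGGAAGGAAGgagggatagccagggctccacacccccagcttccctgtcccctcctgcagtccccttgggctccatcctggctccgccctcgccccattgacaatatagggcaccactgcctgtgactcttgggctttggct
Selp, chr1:164115014-164115263, plus strand: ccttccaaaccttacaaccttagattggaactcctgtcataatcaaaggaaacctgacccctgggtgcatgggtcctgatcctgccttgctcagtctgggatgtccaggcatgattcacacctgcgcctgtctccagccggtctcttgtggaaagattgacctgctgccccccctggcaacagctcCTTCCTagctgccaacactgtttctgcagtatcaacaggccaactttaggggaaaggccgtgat

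The Rbp7 window held 2 overlapping matches, those of Tie1 and Selp 1 each, and that of Kdr none. Of 27025 genes with a RefSeq promoter of this length, 29.2% held a match in the first window listed. A match is a stretch of letters and not a measured binding site, and a window without one says nothing about the factor. The RefSeq table gave a promoter for 5 of the 8 rule genes.

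The endothelial cells were 4 of 1729 cells in the 2-month v2 library, 19 of 2506 at 18 months, 75 of 5555 in the 2-month v3 library and 25 of 4087 at 12 months. Their shares were 0.231% (95% exact Clopper-Pearson interval 0.0631 to 0.591), 0.758% (0.457 to 1.18), 1.35% (1.06 to 1.69) and 0.612% (0.396 to 0.902). The share was thus higher at the older age with v2 and lower at the older age with v3, and the 2 libraries of 2 months lay at opposite ends of the range. These intervals cover counting error only. The sort fixes what enters a library, so these shares are of sorted cells and not of skin. A lower limit of 3 rule genes gave 0.838% at 18 months and 1.48% in the 2-month v3 library, and a limit of 5 gave 0.758% and 1.28%.

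The rule separated the cells sharply. Among all kept cells 11834, or 85.3%, held none of the 8 genes, 1743 held 1 and 125 held 2. Just outside the limit were 11 cells with 3 genes and a median of 15034 UMIs. Just inside were 6 cells with 4 genes and a median of 2006.5 UMIs. Of the 123 members, 99 held 6 or more of the genes. Another 37 cells had at least 4 endothelial genes but 2 or more lymphatic ones and were left out as lymphatic endothelium, and 20 members held exactly 1 lymphatic gene.

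**Figure D1:**
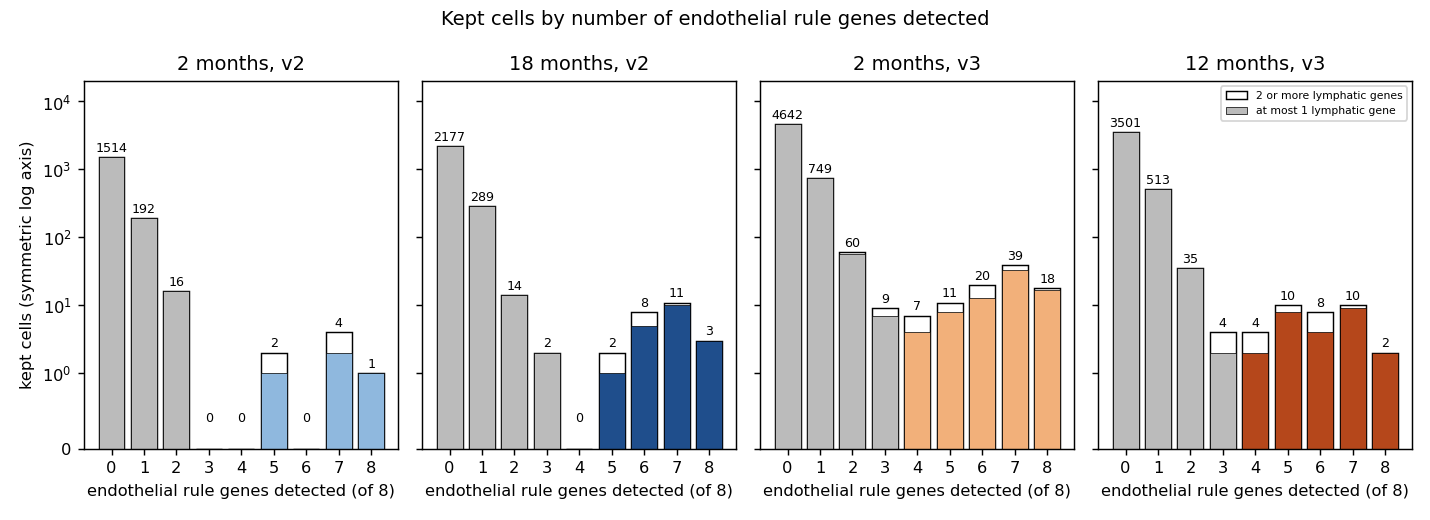
Kept cells (symmetric log axis) by the number of the 8 endothelial rule genes with a UMI, 1 panel per library. Coloured bars are the endothelial members, and white tops are cells with 2 or more lymphatic genes. In the 2-month v3 library 4642 cells held none of the genes and 39 held 7, with only 7 at 4.

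The depth of the members bears on what could be seen. They held 37589 UMIs in all at 2 months and 138340 at 18 months with v2, and 978282 at 2 months and 212976 at 12 months with v3. Their median was 7423, 6772, 11627 and 5402 UMIs per cell in that order, and single cells ranged from 1153 to 39645. The other kept cells had medians of 6321, 6673, 12060 and 11935 UMIs. At 12 months the endothelial cells were therefore shallower than the rest of their library, and elsewhere close to it. A single cell gave 46.0% of the endothelial UMIs of the 2-month v2 library. In the order of libraries above, the members' median mitochondrial share was 2.47%, 3.15%, 3.17% and 3.64%, against 3.04%, 3.24%, 2.94% and 2.89% in the other cells. The v3 libraries shared 84 cell barcodes and the v2 libraries 7, with 1 shared between the 2-month v2 and v3 libraries and 1 between the 18-month and 12-month ones. No barcode was a member in more than 1 library, and 1 member barcode of the 12-month library also occurred in the 2-month v3 library.

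Some members also held genes of other cell types. At least 3 genes of another type's list (5 for fibroblast and sheath matrix genes) were seen in 4 of 4 members of the 2-month v2 library, 7 of 19 of the 18-month, 39 of 75 of the 2-month v3 and 6 of 25 of the 12-month library. These 56 cells had a median of 13922 UMIs and the other members 5850. Genes of pericytes, the contractile cells wrapped around capillaries, were the most frequent, in 37 members. In the 2-month v3 library 33.3% of members but 2.46% of other cells had 3 or more pericyte genes. Keratinocyte genes reached that count in 19 members, matrix genes in 8, macrophage genes in 7 and melanocyte genes in none. Doublets were not removed, because Scrublet's own threshold called only 2 to 11 cells per library, and 3 members were among the 3% of cells with the highest score. Without these 56 cells the shares were 0% at 2 months with v2 (0 of the 1725 cells left, which allows a share of up to 0.214%), 0.480% at 18 months, 0.653% at 2 months with v3 and 0.466% at 12 months. Several of the ratios below are given without these cells too.

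**Figure D2:**
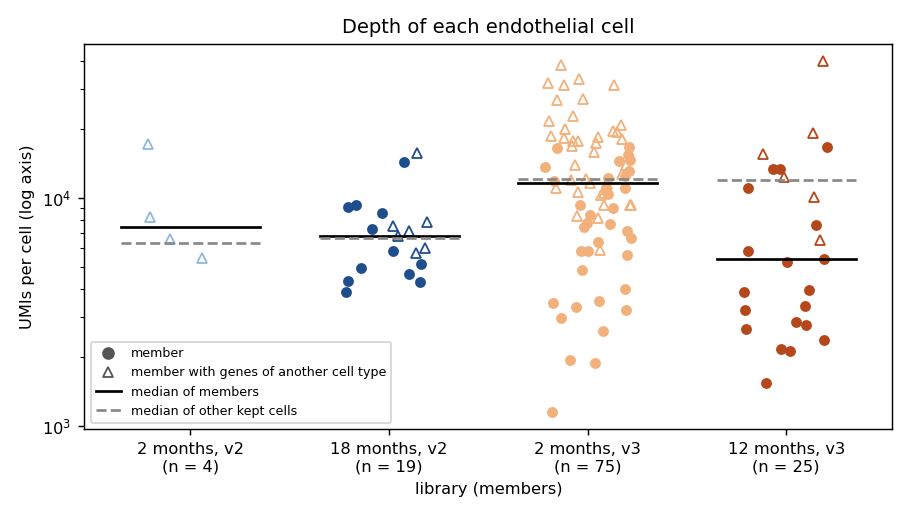
UMIs per cell (log axis) of each endothelial member by library. Triangles are members with genes of another cell type, the solid line is the median of members and the dashed line that of the other kept cells, which in the 12-month library is 11935 against 5402 in members.

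Levels are in CPM, the UMIs of a gene scaled to a total of 1000000 over the endothelial cells of a library. The rule genes chose the cells, so their levels are a description. Pecam1, an adhesion molecule at contacts between endothelial cells, stood at 958 and 781 CPM in the 2-month and 18-month v2 libraries and at 779 and 1301 in the 2-month and 12-month v3 libraries, and between 1.86 and 4.24 in the other kept cells. Cdh5, the cadherin of endothelial junctions, stood at 772, 578, 517 and 615 in that order. Plvap, a protein of the diaphragms of fenestrae and caveolae, stood at 532, 839, 1127 and 925. Pecam1 was detected in 4 of 4, 19 of 19, 74 of 75 and 24 of 25 cells. Kdr, the main receptor for VEGF, was at 186, 224, 223 and 178 CPM and in 4, 13, 49 and 10 cells. The lymphatic genes were near 0 by the rule's own limit: Mmrn1 had no UMI in any member, Reln was in 1 cell and Prox1 in 2 cells of each v3 library. Flt4, a VEGF receptor that blood endothelium can also carry, was at 0, 7.23, 15.3 and 9.39 CPM against 0.456 to 2.16 in the other cells.

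Genes that the rule did not use were also those of endothelium. Of 2289 genes with at least 3 endothelial UMIs in every library, 11.2% were at least 2-fold higher than in the other kept cells in all 4 libraries and 0.83% at least 2-fold lower. The 12 of 15 identity genes that could be compared were all higher in all 4, and the other 3 had too few UMIs. Among the 12, Esam, an adhesion molecule of endothelial junctions, was at 718, 463, 393 and 371 CPM. Tie1 had too few UMIs in the 2-month v2 library to be among them. It was at 53.2, 86.7, 160 and 164 CPM against 0.380 to 1.33 in the other cells. Of the other fixed lists, 8 of 9 capillary genes, 6 of 7 VEGF and angiopoietin genes, 5 of 7 junction genes, 5 of 9 caveolar and transport genes, 3 of 3 leukocyte adhesion genes and 6 of 10 interferon and MHC class I genes were higher in all 4. None of 12 heat shock genes and none of 11 immediate early genes were. Cells chosen for several endothelial genes must be higher for genes that go with them, and a gene needed endothelial UMIs to be compared at all, so these counts are a description without a test.

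Outside the rule, the 25 genes with the largest smallest ratio over the 4 libraries were C1qtnf9, Mecom, Cyyr1, Myct1, Adgrl4, Icam2, Mmrn2, Aplnr, Adgrf5, Podxl, Gimap4, Aqp7, Ushbp1, 8430408G22Rik, Rbp7, Upp1, Btnl9, Gpihbp1, Ptprb, Abcb1a, Vsig2, Cd93, Cd36, Pcdh17 and Cd300lg. Mecom, a zinc finger transcription factor, had 133, 275, 225 and 258 CPM and at most 0.539 in the other cells. Adgrf5, an adhesion G protein-coupled receptor, was even across libraries at 506, 369, 401 and 409. Icam2, a ligand for leukocyte integrins, had 293, 318, 264 and 258, and the receptor-type phosphatase Ptprb 186, 333, 565 and 596. Summed over all 25 genes the endothelial level was 257, 219, 156 and 195 times that of the other cells in the same libraries.

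Several of the 25 handle lipids. Cd36, the fatty acid translocase, was at 1277 and 795 CPM with v2 (2 and 18 months) and at 450 and 949 with v3 (2 and 12 months), at ratios of 175, 77.0, 66.9 and 64.6 to the other cells. Gpihbp1, which holds lipoprotein lipase on the capillary wall, was at 1038, 513, 140 and 235. Aqp7, a water and glycerol channel, was at 133, 36.1, 13.3 and 51.7. Abcb1a, a drug efflux pump of endothelial barriers, was at 160, 108, 42.9 and 93.9. Outside the 25, the fatty acid binding protein gene Fabp4 reached 23118, 11493, 6508 and 18467 CPM in endothelium against 267, 193, 16.5 and 13.7 in the other cells. For Cd36, Gpihbp1, Aqp7, Abcb1a and Fabp4 alike the 2-month v2 library was the highest and the 2-month v3 library the lowest. In the 2-month v2 library 1 cell gave 52.1% of the Cd36 and 69.2% of the Gpihbp1 UMIs. For Aqp7 it was 80% of 5 UMIs and for Abcb1a 100% of 6.

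**Figure D3:**
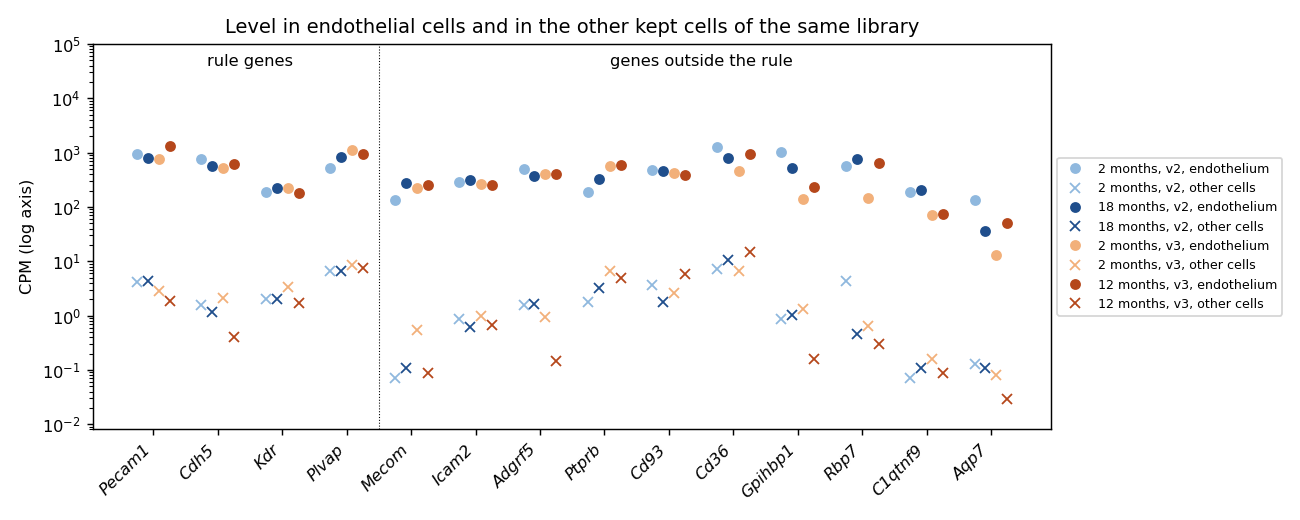
CPM (log axis, 0.01 added) of 14 genes in endothelium (circles) and in the other kept cells (crosses) of each library. Pecam1, Cdh5, Kdr and Plvap belong to the rule. Mecom lies between 133 and 275 in endothelium and at or under 0.539 in the other cells.

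Among the 9 of 12 capillary, 4 of 14 arterial and 4 of 12 venous genes with enough UMIs to compare, 8, 2 and 2 were at least 2-fold higher than in the other cells in all 4 libraries. After each cell was thinned to 2000 UMIs, which left out 3 members of the 2-month v3 and 1 of the 12-month library, at least 2 capillary genes were found in 100%, 57.9%, 65.3% and 62.5% of members (2-month v2, 18-month, 2-month v3 and 12-month). At least 2 arterial genes were found in 75%, 36.8%, 56.9% and 66.7%, and at least 2 venous genes in 50%, 68.4%, 66.7% and 58.3%. A cell could count for several zones: 21.1% of the thinned cells at 18 months and 29.2% in each v3 library had 2 or more genes of both the arterial and the venous list. Without thinning at least 2 venous genes were in 94.7% of cells at 18 months, 93.3% at 2 months (v3) and 88% at 12 months, so these shares follow depth closely.

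Single genes drew the zones more sharply than the lists. Selp was detected in none of the 4 members of the 2-month v2 library, 6 of 19 at 18 months, 21 of 75 at 2 months (v3) and 6 of 25 at 12 months. Members with a Selp UMI were deeper than those without, with medians of 7211 against 6011 UMIs at 18 months, 13085 against 11063 at 2 months (v3) and 12219 against 3927 at 12 months. The levels are scaled to the cells' UMIs, yet a gene is more easily seen in a deeper cell. Ackr1, a chemokine-binding receptor of post-capillary venules, was at 182, 753 and 1270 CPM in the cells with Selp and at 0, 1.45 and 0 in those without. Sele, the gene of E-selectin, was at 263, 1348 and 2172 with Selp and at 0, 26.1 and 6.77 without. Of the cells with Ackr1, 4 of 4, 11 of 12 and 3 of 3 also held Selp, and none held the arterial genes Gja5 or Sema3g. Other arterial genes did overlap: among the 12 Ackr1 cells at 2 months (v3) Bmx and Sox17 were each in 4, and Gja4 and Hey1 each in 1. Among the 4 at 18 months Sox17 and Gja4 were each in 1. Fbln5, also on the arterial list, was in 4 of 4, 11 of 12 and 3 of 3 Ackr1 cells. It was in 9 of 19, 53 of 75 and 17 of 25 of all members.

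Cells with Selp carried further genes of inflamed vessels. Lrg1, a secreted glycoprotein of venules, was at 1133, 2402 and 2585 CPM with Selp and at 202, 382 and 230 without, in the order 18 months, 2 months (v3) and 12 months. Csf3, the granulocyte growth factor, was at 688, 2931 and 6685 with Selp and at 0, 84.2 and 108 without. Icam1, which leukocytes grip, was at 1113, 1075 and 1224 against 101, 482 and 291. Il6, an inflammatory cytokine, was at 1720, 1016 and 1254 against 506, 504 and 149. Aqp1, a water channel placed on the capillary list, was also higher in the Selp cells, at 1659, 2326 and 1805 against 394, 475 and 27.1. Vcam1, another adhesion molecule, followed this order only at 12 months, at 872 against 88.1, while at 18 months it was at 0 against 67.5 and at 2 months (v3) at 114 against 128.

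The arterial genes Sema3g, Bmx, Sox17 and Gja4, and Rbp7, lay on the other side, while other capillary genes were mixed. The arterial genes Sema3g and Bmx were at 0, 6.91 and 0 and at 0, 27.6 and 0 CPM in cells with Selp, against 124, 176 and 163 and 112, 135 and 88.1 in those without. Sox17 was at 40.5, 83.0 and 61.2 with Selp and at 78.7, 369 and 352 without. Gja4, a gap junction protein of arteries, was at 60.7, 38.0 and 0 against 90.0, 210 and 190. Rbp7 was at 263, 58.7 and 0 with Selp and at 1046, 186 and 935 without. Fabp4 was higher with Selp in all 3 libraries, at 13332, 14218 and 21768 against 10471, 3270.2 and 17005, and Cd36 at 18 months and at 2 months (v3), at 931 and 653 against 720 and 364. In all 3 libraries Sema3g, Bmx, Sox17, Gja4 and Rbp7 were lower in the Selp cells and Ackr1, Sele, Lrg1, Csf3 and Icam1 were higher. Of other genes on the arterial list, Fbln5 was detected in 5 of 6, 16 of 21 and 5 of 6 Selp cells. At 18 months its level was 121 CPM with Selp and 731 without. The 1 Gja5 cell at 12 months held Selp, and none of the 3 at 18 months or the 12 at 2 months (v3) did.

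**Figure D4:**
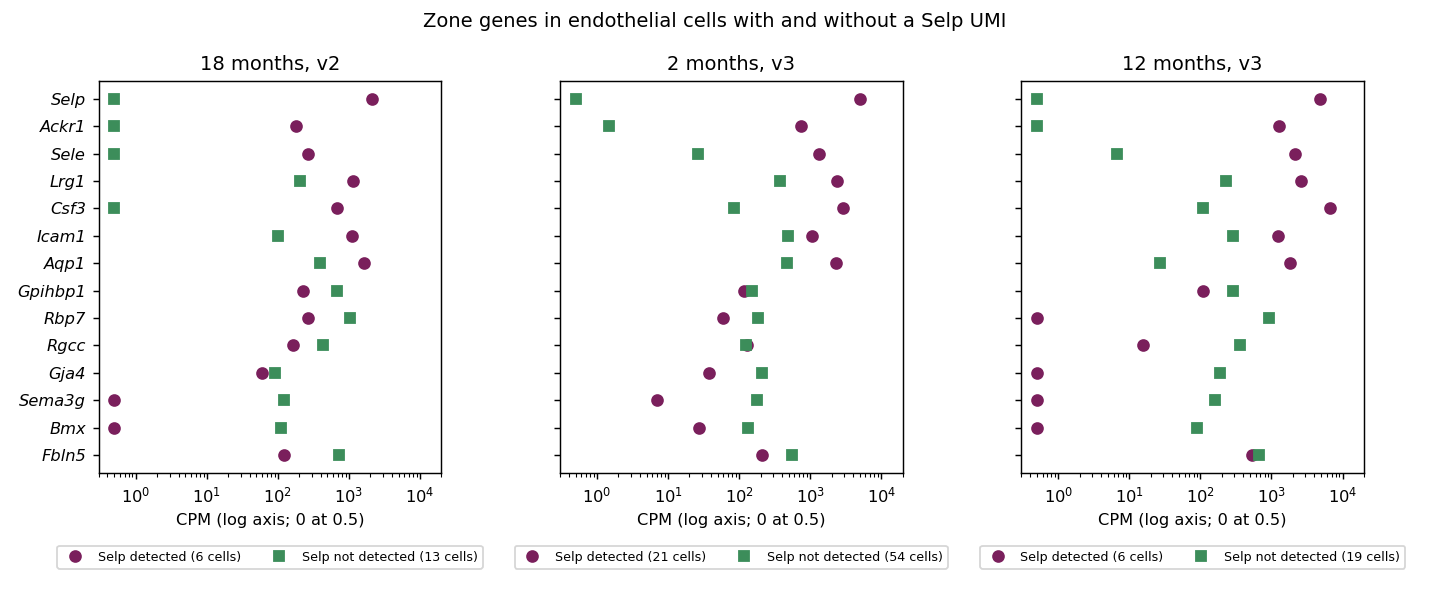
CPM (log axis; 0 drawn at 0.5) of 14 zone genes in endothelial cells with (circles) and without (squares) a Selp UMI, in the 3 libraries with Selp cells. Ackr1 and Sele are at 182 or more in the Selp cells and at 26.1 or less in the others, and Sema3g and Bmx lie the other way.

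Gpihbp1 marked a set that held most of the Rbp7. Gpihbp1 was found in 12 of 19 members at 18 months, 32 of 75 at 2 months (v3) and 10 of 25 at 12 months, and in all 4 of the 2-month v2 library. Rbp7 was at 1053, 294 and 1710 CPM in the cells with Gpihbp1 and at 74.1, 24.6 and 22.4 in those without. Cd300lg, a receptor of capillary endothelium, was at 286, 287 and 431 against 74.1, 58.6 and 59.7, and Btnl9 was at 71.5, 31.2 and 253 against 0 in all 3 libraries. Kdr was higher in the same cells, at 276, 348 and 317 against 98.8, 117 and 97.0. Fabp4 did not keep to this split: it was at 14206 against 4939 at 18 months and 31259 against 10931 at 12 months, but at 5897 against 7027 at 2 months (v3).

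An arterial set was less even. Bmx or Sema3g was found in 5 of 19, 44 of 75 and 10 of 25 members (18 months, 2 months with v3, 12 months). Fbln5, an elastic fibre protein, was at 2058, 679 and 765 CPM in these cells and at 65.3, 76.2 and 449 in the rest. Gja4 was at 129, 236 and 235 against 65.3, 32.7 and 10.2. The connexin gene Gja5 was at 547 against 0 at 18 months and 58.9 against 0 at 2 months (v3), but at 0 against 10.2 at 12 months. Vwf, the clotting protein stored in endothelium, was at 225, 332 and 174 against 196, 302 and 245, so it did not follow this set.

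Of the genes that the sort read on the cell surface, Cd200 was the one found in most members. It was detected in 3 of 4, 16 of 19, 68 of 75 and 22 of 25 cells, at 825, 542, 394 and 366 CPM (2-month v2, 18-month, 2-month v3 and 12-month). Cells with at least 4 macrophage genes, used here for comparison, gave 257, 242, 117 and 91.2 CPM in the same libraries. Their median depths were 10376.5, 7861, 9302.5 and 7883 UMIs. At 2000 UMIs per cell Cd200 was found in 75%, 47.4%, 59.7% and 54.2% of endothelial cells and in 32.7%, 21.2%, 11.8% and 6.20% of macrophage-gene cells. Non-member cells with at least 4 fibroblast and sheath matrix genes had Cd200 at 395, 346, 417 and 400 CPM, above endothelium in both v3 libraries. At 2000 UMIs it was found in 42.8%, 35.2%, 49.8% and 41.8% of these matrix-gene cells, so Cd200 was not particular to endothelium. Dpp4, the gene of Cd26, was found in 1 of the 123 members. Itga9 was found in 0, 2, 15 and 8 members, at 0, 14.5, 19.4 and 37.6 CPM, against 29.4, 27.9, 29.3 and 15.0 in all other kept cells.

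The reporter transcript was higher in members with genes of another type than in the rest. Endothelium had 1490, 1916, 870 and 826 CPM of the eYFP entry, and macrophage-gene cells had 673, 1487, 504 and 333. In members without genes of another type it was at 159 at 18 months, 510 at 2 months (v3) and 192 at 12 months. At 2000 UMIs per cell it was found in 33.3%, 36.4% and 27.8% of these cells and in 40.9%, 34.8% and 24.4% of macrophage-gene cells. Whether these UMIs were background or came from labelled cells was not tested. Cells with at least 4 pericyte genes and too few endothelial ones had 4968, 11624, 2304 and 3942 CPM. Acta2, whose promoter drives the Cre, was at 825, 325, 1240 and 1146 in all members. In members without genes of another type it was at 36.8, 541 and 137 (18 months, 2 months with v3, 12 months).

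Transcription factors of endothelium were present in all libraries. Sox17 had 53.2, 65.1, 284 and 263 CPM (2-month v2, 18-month, 2-month v3 and 12-month) and was at or near 0 in the other cells, with at most 0.110. The ETS factor genes Erg and Fli1 had 53.2, 101, 87.9 and 113, and 53.2, 123, 104 and 103. Epas1, a subunit of the hypoxia-inducible factors, had 239, 506, 515 and 624. Klf2, which blood flow is known to induce, had 160, 181, 873 and 1099, so both v3 libraries were above both v2 libraries. Of 6 factor genes that could be compared, 4 were at least 2-fold higher than in the other cells in all 4 libraries.

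Among receptors, Tek, the receptor for angiopoietins, was even at 79.8, 94.0, 92.0 and 127 CPM. Ramp2, the partner of the adrenomedullin receptor, was at 772, 506, 472 and 610, and Nrp1, a VEGF co-receptor, at 506, 253, 352 and 333. Among ligands, Apln was at 106 and 231 with v2 (2 and 18 months) and at 8.18 and 4.70 with v3 (2 and 12 months), and Pgf, a VEGF family member, at 79.8, 94.0, 27.6 and 75.1. Angpt2, which opposes Tek signalling, was at 53.2, 94.0, 44.0 and 18.8. In the Notch pathway the receptor gene Notch1 was at 26.6, 116, 119 and 127, the ligand gene Dll4 at 0, 36.1, 48.0 and 79.8, and the ligand gene Jag1 at 53.2, 86.7, 83.8 and 113. Only 1 Notch gene had enough UMIs to be set against the other cells, and it was not 2-fold higher in all 4. The vessel wall genes were less specific. Col4a1, of the basement membrane, was even at 718, 737, 712 and 794, while Sparc was at 7263, 5009, 3730 and 2601 and exceeded the other cells (3758, 9893, 10495 and 11505) only in the 2-month v2 library.

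The older libraries were then compared with the 2-month libraries within the endothelium. The study's title asks about age-related hair loss. Chemistry, the labelled reporter and sex went together: Xist, a gene of the inactive X chromosome, was at 0 and 0 CPM in endothelium with v2 and at 651 and 690 with v3. The pairs can therefore not be told apart by chemistry, reporter or sex. Summed UMIs of the 4 libraries were tested in a model of age and chemistry with 1 degree of freedom left over. With edgeR's quasi-likelihood test none of 2719 genes passed an adjusted p of 0.05, 0.0% in either direction, while 35 were higher (1.29%) and 28 lower (1.03%) at an unadjusted p under 0.05. DESeq2 also called none, with 17 genes under an unadjusted 0.05. The smallest adjusted p in edgeR was 0.182, for Krt10. The test was also run on simulated counts with the same library totals, 1 fixed dispersion of 0.05 for all genes and no chemistry effect. There it recovered 11 of 48 genes changed by 1, 38 of 46 changed by 2, and 48 of 48 changed by 3 on the log2 scale. The real sums also hold chemistry differences and genes carried by single cells, so this recovery does not measure the power on them. Krt10, at a fitted -3.04, was not called. Each age and chemistry is 1 library, so differences below are first given within a chemistry, where there is no replicate and no test.

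Within v2, 319 of 2590 genes (12.3%) were at least 2-fold higher and 426 (16.4%) at least 2-fold lower at 18 than at 2 months, after 0.5 was added to each UMI sum. The v2 comparison rests on the 4 cells of the 2-month library, all of which held genes of another type. Rescaling by TMM, edgeR's trimmed mean normalization, shifted every v2 log2 difference by 0.49 and turned these counts into 581 higher and 186 lower, so v2 differences are best read against the median of all genes, which was -0.11. Within v3, 598 of 8202 genes (7.29%) were at least 2-fold higher and 854 (10.4%) at least 2-fold lower at 12 than at 2 months. Without the members that held genes of another type 333 were higher. Only 6 of 2566 genes (0.234%) were at least 2-fold higher in both pairs and 18 (0.701%) lower in both.

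The 6 genes higher in both pairs were Angptl4, Csf3, Cd14, Myc, Bnip3 and Gm12216. Angptl4, an inhibitor of lipoprotein lipase, was at 53.2 CPM at 2 and 188 at 18 months with v2, and at 106 at 2 and 347 at 12 months with v3. Its ratio was 3.53 (95% exact conditional Poisson interval 0.884 to 30.7) and 3.27 (2.39 to 4.45), and 3.27 (1.82 to 5.94) in v3 without members that held other types' genes. The edgeR log2 fold was 1.77 ± 0.41 (SE), with an unadjusted p of 0.000922 and an adjusted p of 0.627. Both older libraries were higher, and the difference did not pass the test over all genes.

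Csf3 was at 0 and 246 CPM with v2 (2 and 18 months) and at 926 and 2127 with v3 (2 and 12 months), a v3 ratio of 2.30 (2.05 to 2.57) that was 5.44 (4.63 to 6.42) without members holding other types' genes. It was in 0 of 4, 3 of 19, 24 of 75 and 7 of 25 cells, and 1 cell gave 91.2%, 35.4% and 61.2% of its UMIs in the 18-month, 2-month v3 and 12-month libraries. The value therefore rests on a few cells. Cd14, a co-receptor for lipopolysaccharide, was at 0, 108, 22.5 and 75.1, and 1 cell gave 93.3% of its UMIs at 18 months. Its v3 ratio of 3.34 (1.64 to 6.66) was 6.71 (2.46 to 21.1) without those members. Myc, a growth-related transcription factor, was at 0, 130, 49.1 and 122, with a v3 ratio of 2.49 (1.48 to 4.09) that was 1.58 without members that held other types' genes. The mitophagy gene Bnip3 was at 0, 72.3, 28.6 and 75.1. Gm12216 was at 0, 174, 48.0 and 98.6, and its v3 ratio of 2.05 was 1.05 without those members.

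Of the genes lower in both pairs, the keratin genes Krt10 and Krt1 belong to the upper layers of the epidermis. Krt10 was at 239, 36.1, 257 and 23.5 CPM (2-month v2, 18-month, 2-month v3 and 12-month), and 1 cell of the 2-month v3 library gave 83.3% of its UMIs there. Kcnj8, a potassium channel subunit of pericytes, was at 293, 86.7, 26.6 and 0. The long noncoding RNA Meg3 was at 1304, 578, 342 and 136, with ratios of 0.444 (0.307 to 0.647) and 0.398 (0.262 to 0.582). With each cell weighted equally these were 0.272 and 0.241, and without members holding other types' genes the v3 ratio was 0.260, from 3 and 31 UMIs. The collagen VI genes Col6a2 and Col6a3 were at 186, 94.0, 123 and 56.3, and at 293, 145, 88.9 and 42.3. None passed the edgeR test, with adjusted p from 0.182 upwards. Pericyte genes lay in the same direction: their summed level was 2740, 1460, 1040 and 549, and 4 of 6 were at least 2-fold lower in v2 and 4 of 8 in v3. Over all genes 16.4% were at least 2-fold lower in v2 and 10.4% in v3. The keratinocyte sum was 638, 130, 816 and 98.6. Without members that held other types' genes Krt10 had a v3 ratio of 1.22 (0.332 to 3.81) and Col6a2 of 1.19 (0.269 to 4.28) in place of 0.459. These rest on 5 and 11 and on 4 and 9 UMIs (12 and 2 months), too few to show a direction. Others lower in both pairs stayed below 1 in those cells: Krt1 at 0.537, Eif4a3 0.497, Gjc1 0.597, Brd9 0.424 and Mat2b 0.207. Their intervals all reached past 1. Col6a3 had 0 and 11 UMIs there, and Kcnj8 had no UMI in either v3 library.

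The capillary list went in opposite directions in the 2 pairs. In v2 1 of 9 genes was at least 2-fold higher and 5 lower at 18 months (median log2 difference -1.01, all genes -0.11, no gene at 0). In v3 5 of 9 were higher and none lower at 12 months (median 1.06, all genes close to 0). Fabp4 (23118, 11493, 6508 and 18467) had a ratio of 0.497 (0.457 to 0.541) in v2 and 2.84 (2.73 to 2.95) in v3. Cd36 had 0.623 (0.440 to 0.893) and 2.11 (1.78 to 2.50), and Gpihbp1 0.495 (0.330 to 0.751) and 1.68 (1.19 to 2.33). Aqp1 ran the other way, at 399, 846, 1022 and 573 CPM, with ratios of 2.12 (1.23 to 3.91) and 0.560 (0.460 to 0.677), the latter 1.01 without members holding other types' genes. Among Gpihbp1-positive cells alone, which were all 4 of the 2-month v2 cells, Fabp4 was still 5.30-fold (5.02 to 5.60) and Cd36 3.20-fold (2.61 to 3.90) higher at 12 than at 2 months in v3. Of the 25 genes that set endothelium furthest apart, 1 was higher and 3 lower in v2, and 5 were higher and none lower in v3. Over all genes 12.3% were higher and 16.4% lower in v2, and 7.29% and 10.4% in v3.

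Immediate early genes, which cells switch on within minutes of a stimulus, differed within v2 but not within v3. In v2 15 of 17 were at least 2-fold higher at 18 months (median 3.15), and 14 of 17 with a median of 2.56 when the 2 genes at 0 in the young library were held at 3 UMIs. Over all genes the same floor gave 13.4% higher and 16% lower. In v3 none of 18 were higher or lower (median 0.12). Fos was at 160 and 3708 CPM in v2 (2 and 18 months) and at 2220 and 2366 in v3 (2 and 12 months), a v3 ratio of 1.07 that was 0.515 without members holding other types' genes. Ier3 was at 79.8 and 1185, and at 2026 and 3094. Socs3, a brake on cytokine signalling, was at 26.6 and 896, and at 545 and 568. The list's sum was 3113, 18122, 18181 and 20491 CPM, so the 2-month v2 library stood apart from the other 3. In the other kept cells the sum was 6536, 8162, 7501 and 10467 CPM, so endothelium was at 0.476 times its library in the 2-month v2 library and at 2.22, 2.42 and 1.96 times in the others. All 17 genes had a fitted age difference above 0, as did 1508 of all 2719 genes tested. An unadjusted edgeR p under 0.05 was reached by 4 of the 17, and on the higher side by 1.29% of all genes. None had an adjusted p under 0.05. Heat shock genes had medians of 0.52 and -0.53 in the pairs, with 3 of 11 higher in v2 and 1 of 12 lower in v3. Over all genes 12.3% were higher in v2 and 10.4% lower in v3.

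**Figure D5:**
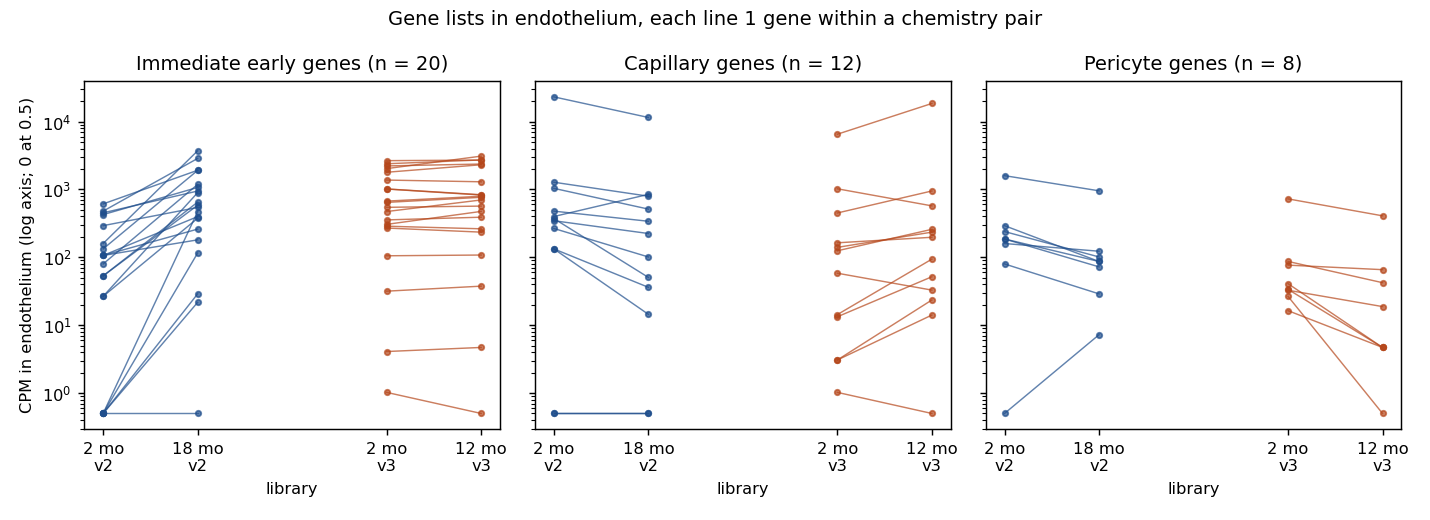
CPM (log axis; 0 drawn at 0.5) of immediate early (20), capillary (12) and pericyte (8) genes in endothelium, each line 1 gene within a chemistry pair. Immediate early genes are higher at 18 than at 2 months within v2 and level within v3, and capillary genes lean in opposite directions in the pairs.

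Venous, arterial and adhesion genes depended on the genes at 0 among the 4 cells of the 2-month v2 library. With 0.5 added, 5 of 8 venous genes were at least 2-fold higher at 18 months (median 1.22), and 4 of 8 with genes at 0 held at 3 UMIs. For arterial genes 5 of 9 became 1 of 9 and the median of 1.82 became 0.24. For leukocyte adhesion genes 3 of 6 became 2 of 6 and the median of 1.58 became 0.32. Over all genes the share higher in v2 was 12.3% with 0.5 added and 13.4% at the floor. In v3 the counts were 2 of 12 venous genes higher and 1 lower, 2 of 14 arterial genes higher and 2 lower, and 1 of 7 adhesion genes higher. Over all genes 7.29% were higher and 10.4% lower in v3. With no 0.5 added 1 of 12 venous genes was higher. Selp itself was at 0 and 745 CPM in v2, at least 9.33-fold higher at 18 months, but at 1479 and 1503 in v3, a ratio of 1.02 that was 2.13 without members holding other types' genes. Il6 was at 0 and 940 in v2, at least 11.8-fold higher, and at 655 and 488 in v3, a ratio of 0.745 that was 1.58 without those members. Both bounds set the 0 at 3 UMIs in that library.

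Of genes for clotting and vascular tone, 4 of 11 were at least 2-fold higher in v3 and none lower, against 7.29% and 10.4% of all genes. With no 0.5 added 3 of 11 were higher, against 6.06% of all genes. Procr, the endothelial protein C receptor, was at 106 and 174 CPM in v2 (2 and 18 months) and at 229 and 535 in v3 (2 and 12 months), with a v3 ratio of 2.34 (1.85 to 2.94) and 5.63 without members holding other types' genes. Edn1, the vasoconstrictor endothelin, was at 851, 50.6, 395 and 357, with a v3 ratio of 0.474 without those members. Vcam1 was at 0, 43.4, 124 and 329, with a v3 ratio of 2.66 (1.95 to 3.60), and 1 cell gave 78.6% of its UMIs at 12 months. The chemokine gene Cxcl12 was at 1729, 361, 490 and 1122, with ratios of 0.209 (0.142 to 0.307) in v2 and 2.29 (1.95 to 2.68) in v3. Cdkn1a, a cell cycle inhibitor linked to senescence, was at 53.2, 311, 570 and 826, and Cdkn2a had 1 UMI in all members, at 18 months. None of these passed the edgeR test over all genes.

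Macrophage genes were also higher in v3: 7 of 7 were at least 2-fold higher at 12 months. Over all genes 12.3% were at least 2-fold higher and 16.4% lower in v2, and 7.29% and 10.4% in v3. The macrophage sum in members was 26.6, 36.1, 94.0 and 474 CPM (2-month v2, 18-month, 2-month v3 and 12-month). In the other cells it was 485, 1524, 2166 and 2276. At least 3 macrophage genes were seen in 6 of 75 members at 2 months (v3) and in 1 of 25 at 12 months. The members' macrophage sum stayed below that of their library throughout. Few identity genes passed 2-fold. In v2 1 of 14 was at least 2-fold higher, and in v3 1 of 15 was lower, the guidance receptor gene Robo4. For VEGF and angiopoietin genes 1 of 9 was higher and 1 lower in v2, and 1 of 15 was higher and 2 lower in v3. From the raw ratios, with no 0.5 added, these counts were 2 higher and 0 lower in v2, and 1 higher and 5 lower in v3, where 12.4% of all genes were lower. For basement membrane genes none of 11 passed 2-fold in v2, and 1 of 13 was higher and 1 lower in v3.

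A last test asked whether the age difference in endothelium was another than in the other kept cells of the same libraries, in a model of the 8 sums with each library as a block. With edgeR 4 of 13847 genes (0.0289%) had a higher log2 age difference in endothelium than in the other cells, and none (0.0%) a lower. At an unadjusted edgeR p under 0.05 these numbers were 73 (0.527%) and 80 (0.578%). The 4 genes were Ccl21a, Nts, Pcp4l1 and Rbp7. A higher value can also come from a fall in the other cells: Rbp7 and Pcp4l1 were lower there at the older age in both pairs. On counts simulated with the same dispersion of 0.05 and no chemistry effect, this test recovered 1 of 50 genes changed by 2 on the log2 scale. It recovered 14 of 49 changed by 4. Each gene was simulated at 1 level shared by endothelium and the other cells, so this recovery does not measure the power on the real sums.

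Rbp7 binds retinol inside cells. It was at 559 and 766 CPM in endothelium with v2 (2 and 18 months) and at 148 and 648 with v3 (2 and 12 months). The age ratio was 1.37 (0.853 to 2.31) in v2 and 4.37 (3.44 to 5.56) in v3, and 7.72 (4.79 to 12.9) in v3 without members holding other types' genes. With each cell weighted equally it was 0.892 in v2 and 5.82 in v3. It was in 3, 10, 30 and 11 cells, and 1 cell gave 71.4%, 35.8%, 20% and 21.7% of its UMIs. In the other kept cells it was at 4.25 and 0.449 in v2 and at 0.621 and 0.285 in v3. The difference of the 2 age effects was 3.64 ± 0.73 on the log2 scale (edgeR adjusted p 0.00239), and the call was lost, at 3.35, without the 3% of cells of highest Scrublet score. Among cells with a Gpihbp1 UMI, Rbp7 was at 559 and 1053 in v2, a ratio of 1.88 (1.17 to 3.17), and at 294 and 1710 in v3, a ratio of 5.81 (4.54 to 7.45). Its own age difference in endothelium, 1.48 ± 0.47, had an adjusted edgeR p of 0.9997.

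The calls of Ccl21a and Nts rested on 1 cell. Ccl21a, a chemokine of lymphatic vessels (the entry ENSMUSG00000094686, which has near-identical copies and is uncertain for that reason), had a difference of 10.41 ± 1.27 (edgeR adjusted p 3.26e-12) and was at 0, 0, 1.02 and 1014 CPM. All 216 of its UMIs at 12 months were in 1 cell of 3347 UMIs. That cell also gave all 46 UMIs of the neurotensin gene Nts at 12 months and held 4 UMIs of the lymphatic gene Prox1, but none of Mmrn1, Reln, Flt4, Lyve1 or Pdpn. It met the rule, which allows 1 lymphatic gene, while its leading genes are lymphatic. Nts had a difference of 6.84 ± 1.38 (edgeR adjusted p 0.0024). Pcp4l1 was at 26.6, 79.5, 283 and 122 in endothelium and at 67.9, 40.1, 85.3 and 1.84 in the other cells, with a difference of 3.90 ± 0.78 (edgeR adjusted p 0.00239), with 1, 7, 37 and 10 endothelial cells holding it. Its endothelial v3 ratio of 0.431 was 0.806 (0.448 to 1.38) without members holding other types' genes and 0.979 with each cell weighted equally. The call was lost with DESeq2, with 12 months counted as young and without the cells of highest Scrublet score.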

How the data were processed

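The authors deposited raw UMI counts, in whole numbers, for each gene and barcode. The submitters' processing notes name STAR, Cell Ranger 2.0.1, Seurat 2.1.0, mm10 and GRCm38.p5 without roles, and the v3 file headers name software 3.0.1. The 4 files held 27999 entries and 17130 barcodes, and 17831300, 21083193, 77032628 and 55396394 UMIs (2-month v2, 18-month, 2-month v3 and 12-month). The labels give 2604, 3776, 6998 and 5415 recovered cells against 1906, 2727, 7023 and 5474 barcodes. A barcode was kept if it had 500 genes or more, 1000 UMIs or more and a mitochondrial share below 10%, which left 13877.

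UMIs were summed per library over members and over the other kept cells. Age was tested two-sided by quasi-likelihood in edgeR 4.0.16 under R 4.3.3, normalized by TMM, with age and chemistry as terms and Benjamini-Hochberg adjustment at 0.05, and DESeq2 1.42.0 was an alternative. The test of differing age effects had each library as a block. The SE was obtained from the log2 fold and its F statistic (their size over the root of F), and draws on variation pooled over genes. Ratios within a pair needed 10 UMIs in the pair and have exact Poisson intervals, and shares have Clopper-Pearson intervals (scipy 1.17.1), all at 95% and for counting error only. A 0 was bounded with 3 UMIs. Scripts were tested on simulated data.

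Members and the 32 gene lists (313 of 315 genes found, 4 by a synonym) were chosen with earlier results of these data known. The genes named were the 12 of the rule, the 25 genes outside it with the largest lowest ratio to the other cells, up to 12 per direction past the age test, filled up by genes past 2-fold in both pairs, and up to 6 per direction past the test of differing effects. Genes named from the lists and the Selp, Gpihbp1, Bmx and Sema3g subsets were chosen after values were seen. Nothing in the labels shows that libraries came from separate litters or days, so p-values measure only the spread between these 4 libraries. Cells thinned to 2000 UMIs leave out shallower ones.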

Additional observations from a re-analysis of the deposited data

Results flagged for a closer look

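In 4 genes the difference between older and 2-month libraries was tested to be another in endothelium than in the other kept cells of the same libraries (edgeR's quasi-likelihood test of the difference of age effects, adjusted over 13847 genes). Rbp7 had a difference of 3.6428 on the log2 scale, and its endothelial level was higher in 2 of 2 older libraries, but the call was lost without the 3% of cells of highest Scrublet score. Pcp4l1 had 3.90321, with endothelium higher at 18 months in v2 and lower at 12 months in v3. In the other kept cells Rbp7 and Pcp4l1 were lower at the older age in both pairs. Nts had 6.84004 and the Ccl21a entry 10.4141, both from 1 cell at 12 months.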

How the results depend on the processing

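The count of genes called in the age test was 0 and stayed 0 with at least 5 rule genes, with Scrublet's top 3% removed, with DESeq2's size factors, with DESeq2 and without the chemistry covariate. It was 1 with at least 3 rule genes, 2 with no lymphatic gene allowed, 2 with 20% mitochondrial UMIs allowed, 2 with no low-count filter and 28 (26 higher, 2 lower) with 12 months counted as young. Leaving out 1 library gave 0 to 23 calls, of which 23 (15 higher, 8 lower) were without the 2-month v2 library and 2 without the 18-month one; these fits drop the chemistry covariate. For differing age effects, 4 calls became 14 with at least 3 rule genes, 2 with Scrublet's top 3% removed, 10 with DESeq2's size factors, 1 with DESeq2, 41 with 12 months counted as young and 7 against mesenchymal cells only. The causes were not tested. Krt10 was called at -3.14 and Krt1 at -2.91 without the 2-month v2 library, Krt1 at -5.31 with 20% mitochondrial UMIs and Csf3 at 1.95 with no lymphatic gene allowed.

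Signs turned for Csf3 (-1.06) and Col6a3 (0.030) without the 12-month library. Without the 2-month v2 library they turned for Kcnj8 (0.58), Meg3 (0.027) and Col6a3 (0.0052). They also turned for Col6a2 (1.19) and Col6a3 (1.05) with at least 3 rule genes. Within v3 without members holding other types' genes they turned for Krt10 (0.36) and Col6a2 (0.35). Kcnj8 had no UMI in those v3 cells, so its value of 1.43 came only from the added 0.5 and is no turn. The difference of age effects turned for Nts to -8.27 with no lymphatic gene allowed and to -2.11 with 12 months counted as young. The calls were lost for Ccl21a with no lymphatic gene allowed (0.45), with DESeq2 (5.13) and with 12 months counted as young (0.25), for Rbp7 (3.35) and Pcp4l1 (3.60) with Scrublet's top 3% removed, for Nts (3.42) and Pcp4l1 (3.95) with DESeq2 and for Pcp4l1 (3.08) with 12 months counted as young.

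TMM within the pair gave 581 genes higher and 186 lower in v2, and removing members with other types' genes gave 333 higher in v3 and shares of 0% at 2 months with v2 and 0.653% with v3. Without thinning, at least 2 arterial genes were in 84.2% (18 months) and 94.7% (2 months, v3) of cells, at least 2 venous genes in 100% (2 months, v2), 94.7%, 93.3% and 88%, and at least 2 capillary genes in 86.7% (2 months, v3). Removing members with other types' genes was not run for the tests or the v2 pair, since it leaves no cell at 2 months with v2. No paired analysis was possible because only 1 label gives a replicate number, so numbers pair no libraries; the ages are matched by chemistry, which is a term of the age test. With each cell weighted equally 7 of 26 ratios within pairs of genes named from the age comparison moved and none of these 26 changed direction; that of Rbp7 in v2 did (0.892). With 4 to 75 cells a library, genes of few UMIs could not be compared.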
